A study of Homo sapiens with 12 samples.

Results

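Long non-coding RNAs are transcripts that carry no long open reading frame and act, where a role is known, as RNA. The 182 genes described here are those that Gencode types as lncRNA and that reached an expected count of 100 or more in each of the 12 deposited columns. Members were thus chosen by their raw expected counts, out of 16780 lncRNA genes and 60649 genes listed in all. The counts that chose them are the counts described, so a high level is part of the definition and not a result. The rule asks for the minimum over all libraries, so it also leaves out genes that fell or rose steeply from or to a low level.

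The libraries were made from xenograft tumours of Cal33, an established human line of head and neck squamous carcinoma, and all 4 groups share that line and tissue. In the SW-682 experiment, 3 smTEADi tumour samples given the small molecule SW-682 were set against 3 Vehicle samples. In the pTEADi experiment, 3 samples labelled pTEADi (DOX+) were set against 3 samples labelled Control (DOX-). TEAD proteins bind DNA and recruit the co-activators YAP and TAZ to growth genes, and both treatments are named as TEAD inhibitors. DOX was present in the pTEADi samples and absent from the Control samples, so an effect of the drug itself and of the inhibitor cannot be told apart. The host strain, its age, the dose and the length of treatment are not given in the sources used here, and the line is 1 cell line. No label ties a sample to an animal of its own, and the p-values therefore cover only the variation among the libraries at hand, which may be technical.

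Several lncRNA classes have known biology. Hosts of small nucleolar RNAs (snoRNAs) are spliced transcripts whose introns hold the RNAs that guide modification of ribosomal RNA, and the spliced host itself is often short-lived. NEAT1 is the scaffold of nuclear paraspeckles and MALAT1 lies in nuclear speckles. Other hosts carry microRNAs, short RNAs that pair with messenger RNA through a seed at bases 2 to 8, and many lncRNAs are read from the opposite strand of a coding gene or from its shared promoter.

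Library totals ran from 13576494 to 15433679 expected counts, and the 182 genes took 1.05% to 1.58% of them, lowest in Control 2. Squamous epithelium markers other than EPCAM (112 to 355 counts) were high in all libraries (KRT5 at 204074 to 356579 and TP63 at 3166 to 5184 counts). Of the markers of other cell types, COL3A1, KDR, ADIPOQ and LEP were at 0 counts in every library, and PTPRC, PECAM1 and CDH5 reached at most 2. Others were present: COL1A1 held 1011 to 1764 counts, VWF 182 to 870, FABP4 140 to 959, CD68 71.4 to 503 and CD74 156 to 390.03. The sum of the endothelial list, which is nearly all VWF, stood at 35.3 to 60.7 CPM in smTEADi against 16.9 to 32.3 in Vehicle, and at 29.5 to 40.5 in pTEADi against 12.9 to 21.6 in Control. Summed fibroblast markers ran from 76.3 to 130.4 CPM, mostly COL1A1. Summed adipocyte markers, mostly FABP4, were at 34.2 to 65.6 CPM in smTEADi against 23.7 to 33.2 in Vehicle, which do not overlap, and at 16.7 to 20.3 in pTEADi against 15.0 to 23.2 in Control. Leukocyte markers were at 34.1 to 52.4 CPM in smTEADi against 35.9 to 44.4 in Vehicle, and at 30.8 to 37.4 in pTEADi against 44.2 to 70.5 in Control. The summed squamous markers were at 39320 to 56340 CPM in smTEADi against 56210 to 68780 in Vehicle, ranges that just overlap. They were at 60500 to 70970 in pTEADi against 56120 to 69550 in Control. The part of these cell types in the results below was not tested. Of listed YAP and TAZ target genes, 6 of 22 tested fell with SW-682 and 11 of 23 with pTEADi, and none rose. Among all genes tested, 3.48% fell with SW-682 and 13.6% with pTEADi. CCN1 fell in both (-1.52 and -1.42, adjusted p = 0.0365 and 0.000624). In bulk samples, fewer cells of a type and less RNA per cell cannot be told apart. Levels are CPM, counts per 1000000 counts, scaled by the trimmed mean of M values within an experiment. Changes are log2 fold changes, treated over control, with standard errors (SE). An adjusted p is a Benjamini-Hochberg value over all genes from edgeR's quasi-likelihood test, and 0.05 is the threshold.

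Of a list of 31 snoRNA hosts, 20 were among the 182 genes, and 18 of these have a start site in RefSeq. The first bases matter for this class, because ribosomal protein genes and several hosts are known to begin with a C followed by a run of pyrimidines, the 5′ terminal oligopyrimidine start. The 40 bases around the RefSeq start (GRCh38.p14, 20 before and 20 from the start, sense strand) follow for the hosts that fell with pTEADi and have an entry and for DANCR, which rose. Capitals mark a run that starts at the first transcribed base with C and goes on with 4 or more C or T.
ZFAS1: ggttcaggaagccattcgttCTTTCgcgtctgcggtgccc
SNHG5: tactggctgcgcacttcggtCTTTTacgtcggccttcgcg
SNHG12: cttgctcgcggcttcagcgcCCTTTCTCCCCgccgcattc
SNHG4: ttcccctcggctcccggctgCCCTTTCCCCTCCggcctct
SNHG1: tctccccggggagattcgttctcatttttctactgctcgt
GAS5: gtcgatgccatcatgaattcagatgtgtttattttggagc
SNHG29: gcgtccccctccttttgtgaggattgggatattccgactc
SNHG17: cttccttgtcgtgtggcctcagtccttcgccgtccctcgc
SNHG3: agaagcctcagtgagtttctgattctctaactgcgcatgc
DANCR: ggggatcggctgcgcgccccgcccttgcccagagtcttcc
The windows lie, with the strand in brackets, for ZFAS1 at chr20:49278622-49278661 (plus), SNHG5 at chr6:85678714-85678753 (minus), SNHG12 at chr1:28581854-28581893 (minus), SNHG4 at chr5:139274081-139274120 (plus) and SNHG1 at chr11:62855866-62855905 (minus). The others lie for GAS5 at chr1:173869026-173869065 (minus), SNHG29 at chr17:16438967-16439006 (plus), SNHG17 at chr20:38435309-38435348 (minus), SNHG3 at chr1:28505923-28505962 (plus) and DANCR at chr4:52712374-52712413 (plus). Such a run stood at the start of 6 of the 18 host promoters (33.3%) and of 4 of the 9 hosts that fell with pTEADi and have an entry (44.4%). SNHG32 and SNHG19, which are not shown, each start with a run of 6 bases and did not pass with pTEADi. Whether a run goes with a fall was not tested. It was found in 10 of 21 ribosomal protein promoters (47.6%) and in 4.04% of all 27305 promoters. SNHG12 and SNHG4 held the longest runs of those shown, 11 and 13 bases. A match is a description of these letters, not a measured start of these transcripts.

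The listed hosts of snoRNAs were lower as a group in pTEADi. Of the 20 hosts, 11 fell and 1 rose with pTEADi (median log2 fold change -0.37). Over all genes tested the median was 0.00, 12.7% rose and 13.6% fell. With SW-682, 2 of the 20 fell and none rose (median -0.27). The background there was 2.02% of genes that rose and 3.48% that fell, with a median of 0.01. An annotated snoRNA lay inside 23 members, of which 10 fell and 1 rose with pTEADi (median -0.25). For SW-682, 2 of these 23 fell and none rose (median -0.15). The 4 of the 23 outside the host list had no call in either experiment. Their medians were 0.21 with pTEADi and -0.05 with SW-682, so the fall is described for the listed hosts only. In the pTEADi experiment 13 of the 20 had every treated library below every Control library, against 21.9% of all genes, and 1 had every treated library above, against 20.1%. With SW-682 the counts were 9 below and 1 above, against 17.3% and 15.7% of all genes. Without pTEADi 2 the number that fell was 5, and without Control 1 it was 7. With SW-682, 4 hosts fell without Vehicle 2. None fell without any other single library of that experiment, nor under the replicate block.

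ZFAS1, on chromosome 20 (GRCh38, chr20:49278178-49299600, plus strand), hosts 3 annotated box C/D snoRNAs. Its level was 70.9, 86.5 and 76.7 CPM in smTEADi and 105, 103 and 110.3 in Vehicle, a change of -0.44 ± 0.10 (SE, adjusted p = 0.0443). In pTEADi it was 92.9, 78.6 and 90.3 CPM against 145, 149 and 105 in Control (-0.61 ± 0.13, adjusted p = 0.00479). In both experiments every treated library lay below every control library. SNHG15, which hosts SNORA9 (chr7:44983019-44986961, minus strand), was the other host called in both experiments. It stood at 20.5, 23.8 and 29.3 CPM in smTEADi and at 34.6, 38.2 and 46.0 in Vehicle (-0.69 ± 0.16, adjusted p = 0.0431). With pTEADi it stood at 35.6, 29.7 and 32.2 CPM against 44.4, 57.8 and 40.7 (-0.55 ± 0.13, adjusted p = 0.00962). Without pTEADi 2 the call of SNHG15 was lost (adjusted p = 0.0611). The SW-682 calls of ZFAS1 and SNHG15 held without Vehicle 2. They were lost without each other library of that experiment and under the replicate block.

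Among the 20 hosts, the largest fall with pTEADi was that of SNHG4, at 14.2, 19.4 and 20.9 CPM against 29.5, 33.3 and 33.5 in Control (-0.82 ± 0.14, adjusted p = 0.00143). SNHG1 holds 7 annotated snoRNA entries and shares a divergent promoter with SLC3A2, the heavy chain of an amino acid transporter. It was at 53.5, 47.9 and 58.5 CPM in pTEADi and at 77.6, 91.9 and 73.1 in Control (-0.60 ± 0.11, adjusted p = 0.002). SLC3A2, whose start lies 51 bases away, also fell (-0.53 ± 0.10, adjusted p = 0.00193). GAS5, a growth-arrest-linked host, was at 84.1, 73.3 and 77.1 CPM against 117, 126 and 94.9 (-0.53 ± 0.11, adjusted p = 0.00445). SNHG6, SNHG5, SNHG29, SNHG12, SNHG17 and SNHG3 also fell, by 0.33 to 0.69 on the log2 scale. SNHG6 was no longer called without pTEADi 2 (adjusted p = 0.0581).

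DANCR went the other way. This host of SNORA26, known as a suppressor of epidermal differentiation, rose with pTEADi from 24.0, 23.4 and 26.5 CPM to 29.0, 31.9 and 31.2 (0.32 ± 0.10, adjusted p = 0.0378). The call held without Control 3 and was lost without each of the other libraries (adjusted p = 0.0543 to 0.129). SNHG7, SNHG8, SNHG11, SNHG16, SNHG19, SNHG20, SNHG32 and EPB41L4A-AS1 did not pass in either experiment, with pTEADi values from -0.33 to 0.06.

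**Figure D1:**
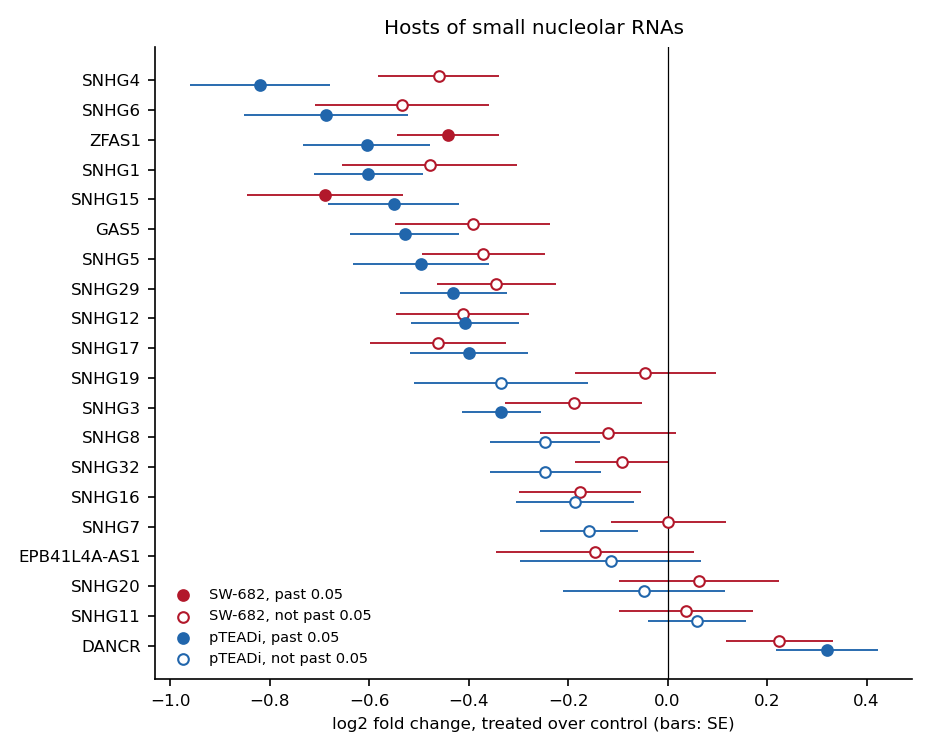
Log2 fold change (x axis, treated over control, bars are SE) of the 20 hosts of small nucleolar RNAs, with SW-682 in red and pTEADi in blue; filled points passed an adjusted p of 0.05. Most points lie left of 0, 11 blue and 2 red points to the left are filled, and DANCR lies to the right.

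Partners of this class in ribosome production were read from the same fits. Of 16 proteins of the box C/D and H/ACA particles, 7 fell and 1 rose with pTEADi (median -0.30), and 3 fell with SW-682 (median -0.26). Shares over all genes were 13.6% that fell and 12.7% that rose with pTEADi, and 3.48% that fell with SW-682. NOP56, a core box C/D protein, fell in both (-0.73 ± 0.17 and -0.65 ± 0.11, adjusted p = 0.0425 and 0.00103), as did the assembly factor RUVBL1 (-0.76 ± 0.15 and -0.60 ± 0.12, adjusted p = 0.0371 and 0.00347). NOP10, a small H/ACA protein, rose with pTEADi (0.29 ± 0.09, adjusted p = 0.0252). Of 30 cytosolic ribosomal protein genes, 6 fell with pTEADi and none passed with SW-682 (0 by edgeR, 4 at an unadjusted p under 0.05). All 30 had a negative log2 value in both, as did 5376 of the 14384 genes tested in both. Nonsense-mediated decay removes many spliced hosts. Of its 15 factors 1 rose (SMG6, 0.30 ± 0.10) and 1 fell (MAGOH, -0.46 ± 0.14) with pTEADi, against 12.7% and 13.6% of all genes.

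TEAD proteins bind the letters GGAATG, and 2 of the 18 host promoters held that hexamer on either strand (11.1%), against 8.77% of the 114 genes with a promoter entry and 14% of all promoters. The 300 bases (250 before and 50 from the RefSeq start, sense strand, GRCh38.p14) are shown for both hosts with a match and for LINC02908, a gene that rose, with the hexamer in capitals, here as its complement on the other strand.
SNHG3: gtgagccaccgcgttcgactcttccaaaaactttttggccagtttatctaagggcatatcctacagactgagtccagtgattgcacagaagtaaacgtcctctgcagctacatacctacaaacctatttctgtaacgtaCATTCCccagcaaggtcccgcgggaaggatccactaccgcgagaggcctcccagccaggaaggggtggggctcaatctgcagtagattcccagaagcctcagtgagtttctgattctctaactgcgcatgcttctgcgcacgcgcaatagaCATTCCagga
SNHG12: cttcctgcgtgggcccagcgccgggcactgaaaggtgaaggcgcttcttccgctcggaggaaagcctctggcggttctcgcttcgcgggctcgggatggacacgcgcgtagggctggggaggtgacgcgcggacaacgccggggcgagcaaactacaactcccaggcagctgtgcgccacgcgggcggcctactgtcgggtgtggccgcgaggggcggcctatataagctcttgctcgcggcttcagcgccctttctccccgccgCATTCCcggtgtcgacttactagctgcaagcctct
LINC02908: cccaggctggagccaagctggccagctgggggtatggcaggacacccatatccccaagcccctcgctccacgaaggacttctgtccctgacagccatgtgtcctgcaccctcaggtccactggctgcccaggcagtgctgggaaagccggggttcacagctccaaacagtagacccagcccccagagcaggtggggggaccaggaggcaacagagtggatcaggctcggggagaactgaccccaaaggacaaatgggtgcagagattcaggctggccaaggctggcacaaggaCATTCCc
The promoters lie for SNHG3 at chr1:28505693-28505992 (plus), SNHG12 at chr1:28581824-28582123 (minus) and LINC02908 at chr9:137027214-137027513 (plus). SNHG3 and SNHG12 fell and LINC02908 rose with pTEADi. The other 7 of the 10 genes with the letters did not pass with pTEADi. The hexamer was in 2 of 15 promoters of genes that fell with pTEADi (13.3%) and 1 of 14 of those that rose (7.14%). It was in 7 of 85 of those that did not pass (8.24%), and in 14% of all promoters.

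NEAT1 (chr11:65422774-65445540, plus strand) rose in both experiments. It stood at 2946, 2079.7 and 2136 CPM in smTEADi and at 1271, 1664 and 1188 in Vehicle (0.80 ± 0.18, adjusted p = 0.0431). The pTEADi libraries held 1600.0, 1759.9 and 1685 CPM against 1037, 1095 and 1264 in Control (0.57 ± 0.10, adjusted p = 0.00209). No treated library overlapped with a control library in either experiment. The pTEADi call held under each alternative, while the SW-682 call held without Vehicle 2 and was lost without each of the other libraries.

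MALAT1, the neighbour of NEAT1 (chr11:65497640-65508073, plus strand), rose with pTEADi, from 379, 239 and 414 CPM to 594, 559.8 and 592 (0.76 ± 0.16, adjusted p = 0.00517). With SW-682 it stood at 1237, 937 and 1044 CPM against 789, 889 and 602, again with no overlap, and did not pass (0.50 ± 0.17, adjusted p = 0.0948). Its level was low in Control 2, the library whose mitochondrially encoded share of 3.64% was also the lowest of the 12, and the call held without it (0.55 ± 0.10, adjusted p = 0.000544). JPX, a gene of the X inactivation centre, rose with pTEADi (0.50 ± 0.14, adjusted p = 0.0215), a call lost without pTEADi 2, pTEADi 3 or Control 1 (adjusted p = 0.101, 0.0654 and 0.0707). Of 15 paraspeckle proteins, 4 fell and none rose with pTEADi, against 13.6% and 12.7% of all genes. NONO, HNRNPH3 and NUDT21 were among those that fell, by 0.23, 0.38 and 0.45 on the log2 scale. These 3 did not pass with SW-682 (adjusted p = 0.263, 0.423 and 0.148). NORAD, a cytoplasmic RNA that binds Pumilio proteins, did not pass in either (0.26 ± 0.11 and 0.23 ± 0.12, adjusted p = 0.155 and 0.186).

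**Figure D2:**
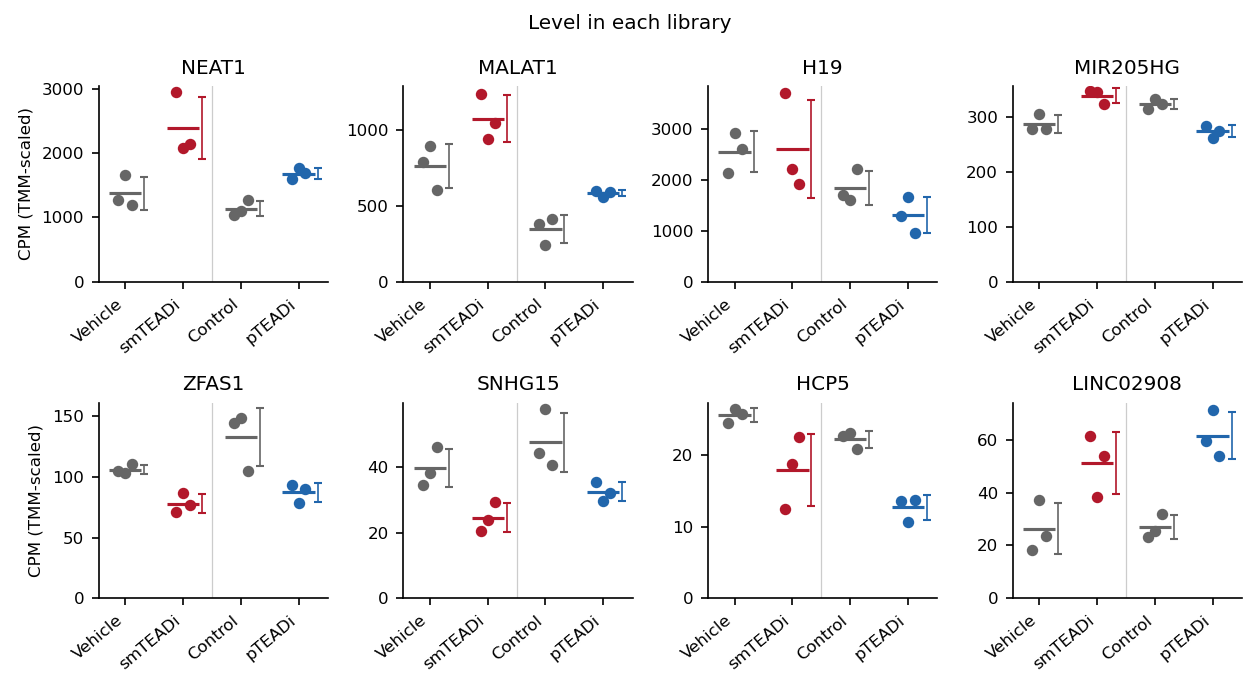
Level of 8 genes in CPM (y axis, from 0) in each library; points are libraries, horizontal lines are group means and bars are SD over 3 libraries. NEAT1 lies higher in every treated library than in every library of its own control group, ZFAS1, SNHG15 and HCP5 lie lower, and H19 libraries overlap between groups.

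H19, the imprinted fetal transcript that holds miR-675, had the highest mean count of the 182 genes (29516). It stood at 3716, 2212 and 1924 CPM in smTEADi and 2133, 2931 and 2622 in Vehicle, which overlap (0.03 ± 0.24, adjusted p = 0.945). With pTEADi it stood at 1294, 1669 and 964 CPM against 1705, 1605 and 2224 and did not pass (-0.49 ± 0.18, adjusted p = 0.0652). Without pTEADi 2 or Control 2 it did pass (adjusted p = 0.0263 and 0.0186). Per kilobase of exon, the mean level over the 12 libraries was 602 CPM for H19, 88.1 for NORAD, 86.4 for MIR205HG, 72.2 for NEAT1 and 66.1 for MALAT1, against a median of 4.38 for the 182 genes.

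The highest level per length belonged to 3 entries of 923 bases on chromosome 21, ENSG00000281181, ENSG00000280614 and ENSG00000280800, at 1338 CPM per kilobase each. They have 1 sequence in the reference and the same counts in every library, so they were counted as 1 when listed apart, which leaves 180 genes. Their level was 1739.9, 1661 and 1808 CPM in pTEADi and 1602, 523 and 861 in Control, and did not pass (0.80 ± 0.29, adjusted p = 0.0599). Without Control 1 the value was 1.32 ± 0.19 and passed (adjusted p = 0.00147), and without Control 2 it was 0.49 ± 0.18 (adjusted p = 0.0536). It also passed with limma-voom (adjusted p = 0.0297), with the replicate block (adjusted p = 0.0116) and with no low-count filter (adjusted p = 2.88e-12), and not with DESeq2 (adjusted p = 0.205). Their share of all counts of the 182 genes ran from 12.3% in smTEADi 1 to 37.8% in pTEADi 3. The entries lie in ribosomal DNA, a repeated locus.

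Of the 182 genes, 19 hold an annotated microRNA hairpin, and the mature sequences (RefSeq, GRCh38.p14) of the hosts the results turn on follow, with the seed in capitals. They were chosen because their hosts passed the test with pTEADi or moved in opposite directions.
hsa-miR-34a-5p: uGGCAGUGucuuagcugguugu
hsa-miR-34a-3p: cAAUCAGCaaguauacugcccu
hsa-miR-205-5p: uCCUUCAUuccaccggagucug
hsa-miR-205-3p: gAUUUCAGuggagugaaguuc
hsa-miR-193b-3p: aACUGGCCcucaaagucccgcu
hsa-miR-193b-5p: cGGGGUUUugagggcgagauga
hsa-miR-365a-3p: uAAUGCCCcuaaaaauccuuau
hsa-miR-365a-5p: aGGGACUUuugggggcagaugug
hsa-miR-4449: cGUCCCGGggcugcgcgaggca
The main arms are placed with hsa-miR-34a-5p at chr1:9151735-9151756 (minus), hsa-miR-205-5p at chr1:209432166-209432187 (plus), hsa-miR-193b-3p at chr16:14304017-14304038 (plus) and hsa-miR-365a-3p at chr16:14309340-14309361 (plus), and miR-4449 lies within DANCR. No seed is shared among those shown. Counts measure the host transcript and not the mature microRNA.

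MIR34AHG, which is read through MIR34A and lies on chromosome 1 (chr1:9148011-9198906, minus strand), rose with pTEADi from 7.97, 8.21 and 9.02 CPM to 11.5, 16.5 and 14.2 (0.74 ± 0.16, adjusted p = 0.00566). With SW-682 it stood at 24.3, 13.9 and 13.8 CPM against 8.69, 14.4 and 8.97, with overlap (0.69 ± 0.27, adjusted p = 0.137). miR-34a is known as a target of p53. TP53TG1, another p53-linked transcript, also rose with pTEADi, from 16.9, 18.1 and 15.0 CPM to 23.3, 24.9 and 24.0 (0.53 ± 0.12, adjusted p = 0.00545). Its divergent partner CROT, a peroxisomal acyltransferase, rose with it (0.83 ± 0.11, adjusted p = 0.000297). MIR22HG did not pass in either (adjusted p = 0.234 and 0.1), nor did MIR4435-2HG (-0.56 ± 0.17 and -0.50 ± 0.19, adjusted p = 0.0762 and 0.0727). MIR4435-2HG has a near-identical copy in CYTOR and its counts are fractional, so its level is uncertain. Of 13 microRNA processing genes, 1 rose with pTEADi (AGO4, 0.41 ± 0.13), against 12.7% of all genes. None of the 13 passed with SW-682 (0 by edgeR, 3 at an unadjusted p under 0.05).

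MIR205HG, host of the epithelial microRNA miR-205, fell with pTEADi from 314, 332 and 323 CPM to 283, 262 and 275 (-0.24 ± 0.08, adjusted p = 0.0472). The call was lost without each single library of the experiment (adjusted p = 0.0518 to 0.2). With SW-682 it stood higher, at 347, 344 and 323 CPM against 277, 305 and 278, and did not pass (0.24 ± 0.10, adjusted p = 0.148). MIR193BHG showed the same pattern of signs at larger size. It fell with pTEADi from 17.6, 18.1 and 19.4 CPM to 10.7, 12.1 and 11.4 (-0.69 ± 0.12, adjusted p = 0.00187), and with SW-682 its libraries overlapped (0.46 ± 0.22, adjusted p = 0.215). LINC03061 fell with pTEADi (-0.48 ± 0.11, adjusted p = 0.00641) and was higher in all 3 smTEADi libraries without passing (0.47 ± 0.14, adjusted p = 0.0753). LINC00511, a growth-linked transcript, fell likewise (-0.45 ± 0.11, adjusted p = 0.00934; with SW-682 0.29 ± 0.11, adjusted p = 0.124).

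The test of the difference between both effects was made in the fit of all 12 libraries. None of the 182 genes passed at an adjusted p of 0.05, where 0.0129% of all genes did. An unadjusted p under 0.05 was found for 18 (9.89%), where 7.13% of all genes had one. With the 3 identical ribosomal DNA entries counted as 1, the number was 16 of 180 (8.89%). The difference, pTEADi effect minus SW-682 effect, was -0.74 ± 0.14 for LINC00511 (unadjusted p = 0.000102, adjusted p = 0.158) and -0.95 ± 0.19 for LINC03061 (adjusted p = 0.251). It was -0.48 ± 0.11 for MIR205HG (adjusted p = 0.335) and -1.14 ± 0.27 for MIR193BHG (adjusted p = 0.335), which passed without smTEADi 3 (-1.35, adjusted p = 0.0249). DESeq2 gave 4 genes past 0.05, all with negative differences. The 2 experiments have separate controls, and 134 of the 182 genes (73.6%) had the same sign in both, against 75.8% of all genes; Spearman's rho across the 182 genes was 0.597, and 0.671 across all genes (genes are not independent replicates).

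**Figure D3:**
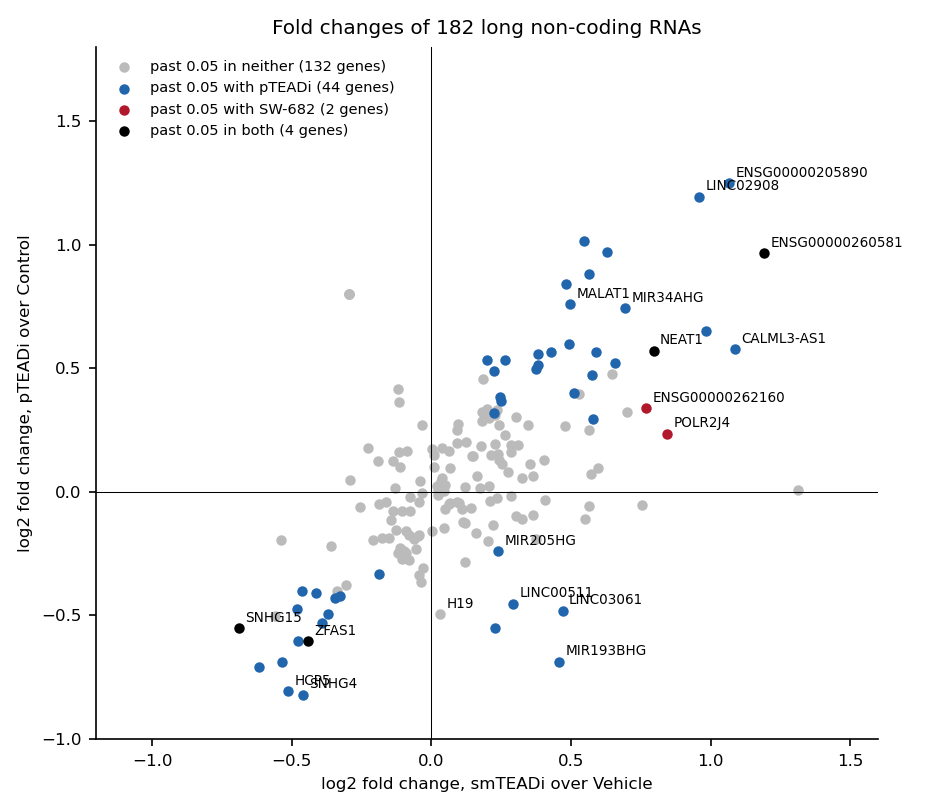
Log2 fold change with SW-682 (x axis) and with pTEADi (y axis) for the 182 genes, coloured by which comparisons passed an adjusted p of 0.05. Points lie mainly along the rising diagonal; MIR193BHG, LINC03061, LINC00511 and MIR205HG lie to the lower right.

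Over all 182 genes, 4 rose and 2 fell with SW-682, and 28 rose and 20 fell with pTEADi. As shares these were 2.20% and 1.10% for SW-682 and 15.4% and 11.0% for pTEADi, to be read against the background given above. The SW-682 calls had adjusted p-values from 0.0365 to 0.0443, close to the threshold, and the 0.0365 is the smallest of any gene. No member passed when smTEADi 3, Vehicle 1 or Vehicle 3 was left out. Leaving out smTEADi 1 gave 1 call, smTEADi 2 gave 3 and Vehicle 2 gave 22. With pTEADi the number fell from 48 to 26 without pTEADi 2. The medians were 0.12 with SW-682 and 0.04 with pTEADi, against 0.01 and 0.00 over all genes. Over all lncRNA genes tested they were 0.17 and 0.08, so a positive median is not particular to the 182. Of coding genes with 100 counts in every library, 14.5% rose and 15.4% fell with pTEADi, and 2.23% and 4.02% with SW-682. In the SW-682 experiment 52 genes had every treated library above and 18 every treated library below, against 15.7% and 17.3% of all genes. The pTEADi counts were 41 and 32, against 20.1% and 21.9% of all genes. Those 41 include the 3 identical ribosomal DNA entries. Called in both experiments were NEAT1 and ENSG00000260581, which rose, and ZFAS1 and SNHG15, which fell.

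**Figure D4:**
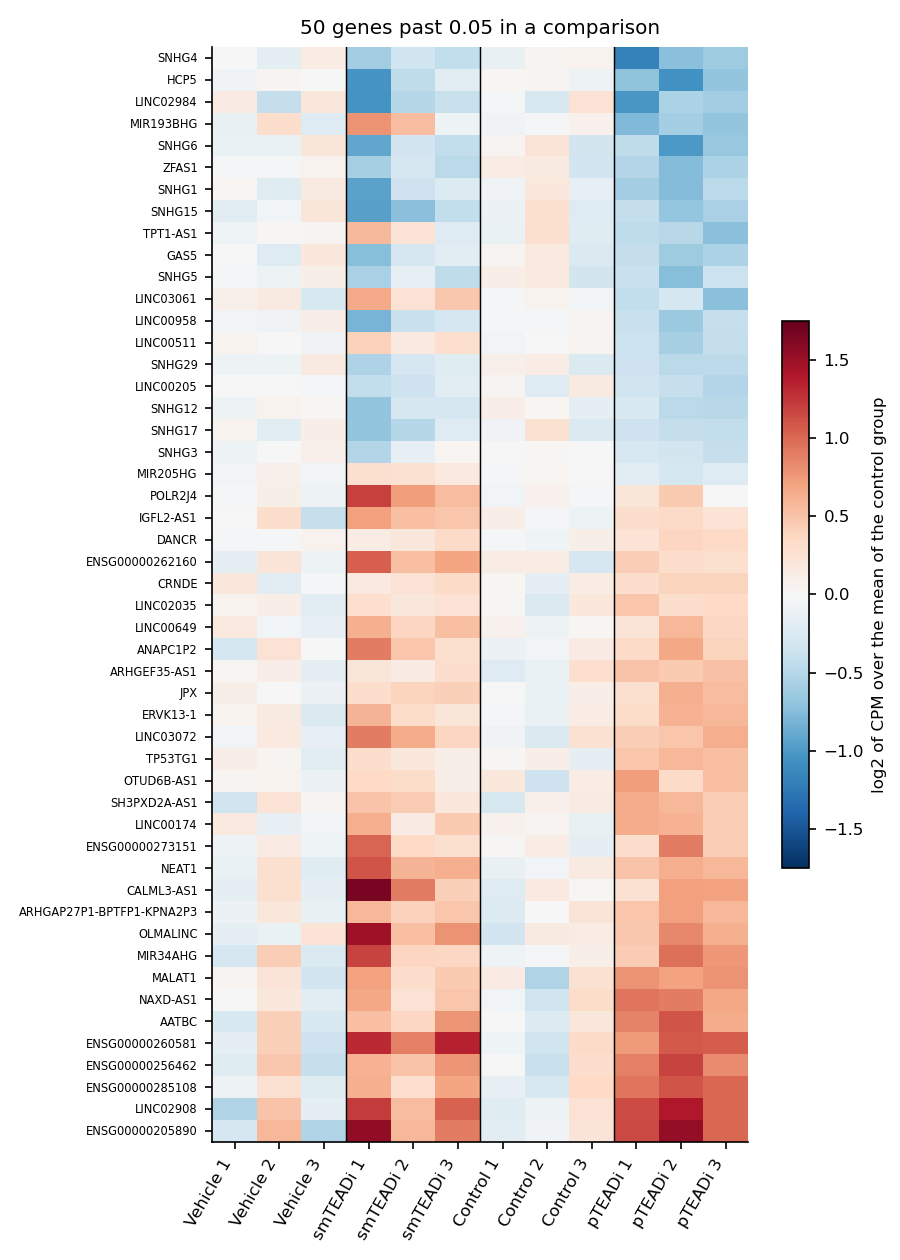
Log2 of CPM over the mean of the experiment's own control group (colour scale from -1.75 to 1.75) in each of the 12 libraries, for the 50 genes past an adjusted p of 0.05 in a comparison, ordered by pTEADi fold change. The 20 genes that fell with pTEADi, 11 of them snoRNA hosts, fill the upper rows, and smTEADi 1 has the strongest colours among the smTEADi libraries for several genes.

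ENSG00000260581, a gene of 1567 exonic bases (chr5:151652275-151655449, plus strand) with no coding partner within the distances searched, had the largest rise called with SW-682. It stood at 44.9, 33.7 and 46.6 CPM in smTEADi and 16.2, 24.3 and 14.2 in Vehicle (1.19 ± 0.21, adjusted p = 0.0365). With pTEADi the levels were 19.1, 24.0 and 23.8 CPM against 10.8, 9.0 and 14.5 (0.97 ± 0.17, adjusted p = 0.00179). POLR2J4 and ENSG00000262160 rose with SW-682 only as calls (0.84 ± 0.18 and 0.77 ± 0.17, adjusted p = 0.0397 and 0.04). The difference between experiments did not pass for either (adjusted p = 0.648 and 0.722). POLR2J4 is related to other copies of the gene for a polymerase II subunit and has fractional counts. ENSG00000262160 lies for 88.0% of its exonic length antisense to NFATC3 exons, and NFATC3 itself was at -0.05 ± 0.11 and -0.02 ± 0.14 in the 2 experiments; without a stated strand setting their reads cannot be told apart.

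The largest rises with pTEADi were those of ENSG00000205890 and LINC02908. ENSG00000205890 stood at 26.3, 34.3 and 23.6 CPM against 10.3, 11.4 and 13.9 (1.25 ± 0.16, adjusted p = 0.000289). Its exons overlap BICDL2, a coding gene that rose with it (1.39 ± 0.13, adjusted p = 3.9e-05), over 13.0% of its exonic length. ENSG00000205890 held 8.625% to 11.98% of the BICDL2 count across the libraries. With SW-682 the log2 values were 1.07 for ENSG00000205890 and 0.99 for BICDL2. The strand setting is not stated, so reads of the shared exons cannot be told apart. Their part in the rise of ENSG00000205890 was not tested. LINC02908 (chr9:137027464-137037957, plus strand) stood at 59.5, 71.5 and 54.1 CPM against 23.4, 25.4 and 32.1 (1.19 ± 0.14, adjusted p = 0.000129). ENSG00000285108 on chromosome 8 rose from 50.3, 45.8 and 70.7 CPM to 106, 119.5 and 111 (1.01 ± 0.14, adjusted p = 0.000379). With SW-682 all 3 were higher in every treated library and did not pass (adjusted p = 0.0702, 0.0549 and 0.0609).

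At the CALML3 locus on chromosome 10, CALML3 itself, a keratinocyte calmodulin-like gene, rose with pTEADi (1.08 ± 0.17, adjusted p = 0.000743). ENSG00000256462, which lies wholly within CALML3 exons on the other strand, held 13.3% to 18.2% of the CALML3 count in each library and rose with it, to 206, 252 and 198 CPM from 111, 85.1 and 139 (0.97 ± 0.15, adjusted p = 0.000917). The strand setting is not stated, so its reads and those of CALML3 cannot be told apart. CALML3-AS1, with 3.85% of its exonic length there, rose from 30.9, 40.5 and 36.6 to 43.2, 59.4 and 58.6 CPM (0.58 ± 0.14, adjusted p = 0.00897). That call was lost without Control 1 (adjusted p = 0.0507) and with a spread shared by 4 groups (adjusted p = 0.11). With SW-682 the values were 0.66 for CALML3, 0.63 for ENSG00000256462 and 1.09 for CALML3-AS1, and none passed. CALML3-AS1 did pass there with DESeq2 (adjusted p = 0.000523) and the shared spread (adjusted p = 0.0126), and not without smTEADi 1 (adjusted p = 0.0765). Of the 6 squamous and epithelial lncRNAs of the list among the 182 genes, 2 rose (CALML3-AS1 and DANCR) and 2 fell (MIR205HG and LINC00958) with pTEADi. Shares over all genes were 12.7% and 13.6%. None of the 6 passed with SW-682 (0 by edgeR, 3 at an unadjusted p under 0.05). LINC00958 stood at 28.5, 23.6 and 28.2 CPM against 36.4, 36.7 and 38.5 (-0.47 ± 0.10, adjusted p = 0.006). TINCR, a keratinocyte differentiation gene, is typed as coding in the annotation used and is not among the 182.

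HCP5, a transcript of the major histocompatibility complex class I region (chr6:31463170-31478936, plus strand), fell with pTEADi from 22.7, 23.0 and 20.8 CPM to 13.6, 10.6 and 13.8 (-0.81 ± 0.13, adjusted p = 0.00108). In the SW-682 experiment it stood at 12.5, 18.8 and 22.4 CPM against 24.5, 26.4 and 25.7 and did not pass (-0.51 ± 0.19, adjusted p = 0.125). HEIH, the other gene of the interferon and immune list among the 182, overlapped between groups in both. Of all 9 tested genes of that list 6 fell with pTEADi and none rose, against 13.6% and 12.7% of all genes. The 5 besides HCP5 were HLA-F-AS1, IRF1-AS1, NKILA, PSMB8-AS1 and BISPR, each with a mean count under 100. None of the 9 passed with SW-682 (0 by edgeR, 5 at an unadjusted p under 0.05). LINC02984, on chromosome 8, fell with pTEADi to 8.93, 12.4 and 11.9 CPM from 17.7, 14.9 and 21.6 (-0.71 ± 0.17, adjusted p = 0.00991).

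The remaining risers with pTEADi were 15 genes with changes from 0.29 (IGFL2-AS1) to 0.88 (AATBC). AATBC rose by 0.88 ± 0.16 (adjusted p = 0.00201) and NAXD-AS1 by 0.84 ± 0.16 (adjusted p = 0.00305). LINC00174 (0.57 ± 0.12), ERVK13-1 (0.51 ± 0.14), CRNDE (0.37 ± 0.11) and 10 others followed, among them ANAPC1P2 and ARHGAP27P1-BPTFP1-KPNA2P3, which carry sequence of related genes and are uncertain. All 15 had a positive value with SW-682, from 0.23 to 0.66, and none passed there. TPT1-AS1 (-0.55 ± 0.15, adjusted p = 0.0187) and LINC00205 (-0.42 ± 0.12, adjusted p = 0.0203) also fell with pTEADi. Of 11 genes of the stress, hypoxia and p53 list among the 182, 3 rose (NEAT1, TP53TG1 and MIR34AHG) and 1 fell (GAS5) with pTEADi, and 1 rose (NEAT1) with SW-682. Of 5 growth-linked genes 1 fell (LINC00511) with pTEADi and none passed with SW-682 (0 by edgeR, 2 at an unadjusted p under 0.05). Of 8 nuclear body and chromatin genes, 3 rose with pTEADi (NEAT1, MALAT1 and JPX) and 1 with SW-682 (NEAT1). Of 8 listed microRNA hosts, 1 rose and 1 fell with pTEADi. That list leaves out MIR193BHG. Of the 19 genes with an annotated microRNA hairpin, 3 rose and 2 fell with pTEADi, and 1 rose with SW-682. Shares over all genes, for each of these sets, were 12.7% that rose and 13.6% that fell with pTEADi. With SW-682 they were 2.02% and 3.48%.

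Position was described for all 182 genes. Some exonic overlap with a coding gene was present for 108 of them and absent for 74, and 50 had a divergent coding start within 1000 bases. In the group of 74 without overlap 18 rose and 11 fell with pTEADi. In the group of 108 with overlap 10 rose and 9 fell, against 12.7% and 13.6% of all genes. Of 11 tested pairs with a divergent partner and no shared exon, 9 had the same sign in lncRNA and partner with pTEADi and 7 with SW-682 (Spearman's rho across pairs 0.727 and 0.545, n = 11). Of 13 tested pairs with 50% or more of the lncRNA antisense to coding exons, 7 had the same sign with pTEADi, and with SW-682 11 of 14 (Spearman's rho 0.143 and 0.42). Over all pairs 60 of 102 had the same sign with pTEADi and 56 of 104 with SW-682. ENSG00000258232, of which 97.9% lies antisense to the tubulin gene TUBA1C, held 12.4% to 14.7% of its count and did not pass in either.

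**Figure D5:**
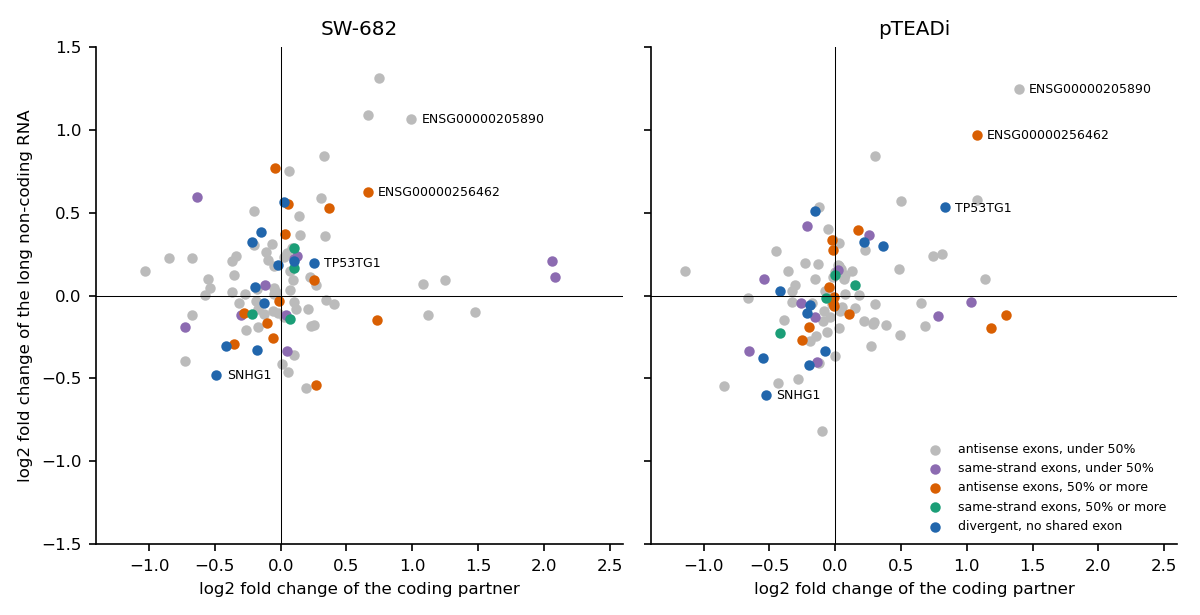
Log2 fold change of the coding partner (x axis) and of the lncRNA (y axis) for pairs tested in each experiment, coloured by how they overlap. The pairs of ENSG00000205890 and ENSG00000256462 lie at the upper right of the pTEADi panel, and many pairs lie near 0 on 1 axis.

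The members just inside the threshold had minimum counts of 101 (OLMALINC and LINC02541) and 104 (ENSG00000288398), and those just outside had 97.8 (ENSG00000262879), 98.9 (ENSG00000257379) and 99.2 (UCKL1-AS1). OLMALINC rose with pTEADi from 7.0, 9.79 and 9.58 CPM to 12.2, 15.7 and 13.5 (0.65 ± 0.17, adjusted p = 0.0146), a call lost without pTEADi 2 or Control 1 (adjusted p = 0.0751 and 0.0687). LINC00938 and LINC02541 did not pass in either experiment.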

How the data were processed

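Per the labels' protocols, poly-T beads were used to select RNA of the 12 tumour samples, which was read from both ends over 150 bases. STAR 2.7.9a, RSEM 1.3.1, GRCh38 and Gencode 38 are named in the submitters' processing notes. The authors deposited unscaled expected counts, in 2 tables over an identical set of genes. Whether reads were assigned by strand or host reads were separated is not given in the sources used here, so antisense and overlapping genes, and genes with near-identical copies, are uncertain.

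Gene types, names and positions came from Gencode 44 (GRCh38): of 60649 genes, 60463 matched, 142 had no entry and 44 were second, Y-linked entries of pseudoautosomal genes. A gene typed otherwise in Gencode 38 would be placed otherwise. Promoter and microRNA sequences came from RefSeq (GRCh38.p14), with 114 of 182 genes matched to a promoter.

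After rounding, expected counts entered edgeR 4.0.16 under R 4.3.3 (filterByExpr at 10, TMM, two-sided quasi-likelihood F test, Benjamini-Hochberg over all genes at 0.05), with 1 fit per experiment and 1 of all 12 libraries for the difference. All 182 genes passed the filter. The SE is the log2 fold change divided by the square root of F. No 2 libraries of a group were duplicates (chi-square per degree of freedom 7.42 to 34). Alternatives were RLE and upper-quartile scaling, other filters, DESeq2 1.42.0, limma-voom (limma 3.58.1), unrounded counts, a shared spread, a replicate block, other member rules and leaving out each library.

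The members, the 18 gene lists and the tests were chosen with earlier results of these data known. The values of 1 gene of these lists are not reported here. Named genes were the 5 of highest level per length, genes past the threshold in both comparisons, the 5 per direction that changed most without overlap, up to 4 per list by p, and those at the count threshold; LINC03061, LINC00511 and the other members named beside them were chosen after their values were seen.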

Additional observations from a re-analysis of the deposited data

How the results depend on the processing

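With SW-682, the 6 calls (4 rose, 2 fell) became 34 (25, 9) with no low-count filter, 29 (22, 7) with DESeq2 and 30 (23, 7) with a spread shared by 4 groups. Without 1 library they ran from 0 to 22 in all, 0 to 17 for rises and 0 to 5 for falls. The replicate block gave 0 (0 rose, 0 fell; 54 at an unadjusted p under 0.05). Other member rules gave 13 (9, 4) for a mean of 100, 13 for a minimum of 50 (10 rose), 4 for a minimum of 200 (2 rose) and 3 (2, 1) without coding overlap. With pTEADi, the 48 calls (28 rose, 20 fell) ran from 26 to 59 without 1 library (15 to 37 rose, 11 to 22 fell) and became 79 (52 rose), 82 (53 rose), 27 (13 rose) and 29 (18 rose, 11 fell) under the same rules in order; the block gave 52. For the difference, 0 became 9 with no filter (3 rose, 6 fell) and 4 with DESeq2 (0 rose, 4 fell), and ran from 0 to 1 without 1 library (0 to 0 rose, 0 to 1 fell). The cause was not tested, beyond fewer or more genes being read under the member rules. No call changed sign under any of these fits. Deviations of libraries of the same number correlated at -0.144 to 0.13. With 3 libraries a group this cannot decide whether such libraries share a batch, and the labels do not say. Among named genes, H19 with SW-682, a value near 0, turned to -0.0154 under limma-voom and -0.0224 under the replicate block and ran from -0.31 to 0.20 without 1 library. With pTEADi, HEIH ran from -0.0808 to 0.0334 and ENSG00000258232 from -0.0935 to 0.02. Of the other values of named genes with SW-682, 33 lost and 46 gained a call under an alternative and 442 kept their side; with pTEADi 26 lost, 15 gained and 481 kept theirs. With 3 libraries a group, a gene that did not pass is not shown to be unchanged.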

Other observations

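Of 93 lncRNA genes with a mean of 100 or more but a lower count in some library, 24 rose and 7 fell with pTEADi (median log2 fold change 0.23) and 5 rose and 2 fell with SW-682 (median 0.28). Among all genes tested, 12.7% rose and 13.6% fell with pTEADi, and 2.02% rose and 3.48% fell with SW-682. With pTEADi 10 of the 93 changed by more than 2-fold, against 3 of the 182. The 93 were picked for a low count in some library, so larger changes can follow from that choice alone. The rule for the 182 itself leaves out genes that are low in 1 group.

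LINC02593 stood at 369, 537 and 408 counts in pTEADi against 69, 133 and 72 in Control (log2 fold change 2.29 ± 0.23 SE). It and each change named next passed edgeR's test at an adjusted p of 0.05. GPC1-AS1 rose with pTEADi (1.74 ± 0.19) and with SW-682 (0.86 ± 0.18), FZD10-AS1 with both (1.39 ± 0.23 and 1.37 ± 0.23), and SOX21-AS1 with pTEADi (1.46 ± 0.22). ENSG00000187951 fell with both (-1.22 ± 0.20 and -0.99 ± 0.21). The host SNHG26 fell with pTEADi (-0.85 ± 0.18). TUBA1B-AS1 ran from 4 to 628.09 counts across the 12 libraries, and in Vehicle alone it stood at 628.09, 4 and 524.18. These genes were chosen after their values were seen.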
